A study of Mus musculus with 9 samples.

Results

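The Hox genes of mouse back skin were followed across the mesenchymal dermal papilla and 2 epithelial populations of the resting hair follicle. All genes with a symbol of the form Hoxa, Hoxb, Hoxc or Hoxd plus a number and at least 1 probe set annotated to that gene alone were taken, and each was represented by its probe set with the highest mean over all arrays. This gave 31 Hox genes, measured by 37 probe sets, among 12393 named genes on the array. Cluster A had 9 of them, cluster B 9, cluster C 6 and cluster D 7. Hox genes with no probe set of their own were not analysed here. The 3 probe sets annotated to more than 1 Hox gene were not used.

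RNA came from back skin of female CD1 mice carrying Lef1RFP/K14H2BGFP, a red reporter named for Lef1 and a green histone fusion named for keratin 14, and all groups shared this genotype. Dermal papilla cells, the signalling mesenchyme at the follicle base, were sorted as red and not green, and as negative for CD45, CD117, CD34 and integrin alpha 7. Hair germ cells, the small epithelial group that touches the papilla, were sorted as green, CD34 negative and P-cadherin high. Bulge cells, the stem cell niche of the resting follicle, were green, CD34 positive and P-cadherin low. Each population was collected at postnatal day 43, 56 and 69, labelled early, middle and late telogen (the resting phase of the hair cycle), with 1 array per population and day. The sources used here give neither the number of mice in a sort nor whether 1 set of mice supplied all sorts of a day. The study's design text states that the arrays served to find papilla signals, their targets, and signatures of hair germ and bulge.

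Hox proteins are homeodomain transcription factors. In mammals their genes lie in 4 clusters, and within a cluster the paralog number follows the physical order. Genes of low number are first expressed early and anteriorly in the embryo, genes of high number later and more posteriorly, a property called colinearity. Genes of the same number in different clusters are paralogs that descend from 1 ancestral gene. In adult skin, fibroblasts are known to keep site-specific Hox patterns, and Hoxc13 is known for its role in hair shaft formation. In the gene table, cluster A lies on chromosome 6, cluster B on chromosome 11, cluster C on chromosome 15 and cluster D on chromosome 2.

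The promoters of 5 Hox genes are shown because these genes carry the contrasts described here. Hoxa7 and Hoxa9 are neighbours in cluster A whose brightest probe sets differed between papilla and epithelium in opposite directions. The Hoxa9 difference was not seen in its second probe set, and its call depended on single arrays, as given below. Hoxb4 and Hoxc4 are paralogs of the same group that also went in opposite directions. Hoxd9 was the cluster D gene that was higher in the papilla. Sequences are from RefSeq on GRCm38.p6, written 5′ to 3′ on the gene's strand, from 250 bases before to 50 bases after the annotated start, with CG dinucleotides in capitals. Hoxa7 is at chr6:52218524-52218823 on the minus strand, Hoxa9 at chr6:52227321-52227620 on the minus strand, Hoxb4 at chr11:96318017-96318316 on the plus strand, Hoxc4 at chr15:103034145-103034444 on the plus strand, and Hoxd9 at chr2:74697513-74697812 on the plus strand.
Hoxa7: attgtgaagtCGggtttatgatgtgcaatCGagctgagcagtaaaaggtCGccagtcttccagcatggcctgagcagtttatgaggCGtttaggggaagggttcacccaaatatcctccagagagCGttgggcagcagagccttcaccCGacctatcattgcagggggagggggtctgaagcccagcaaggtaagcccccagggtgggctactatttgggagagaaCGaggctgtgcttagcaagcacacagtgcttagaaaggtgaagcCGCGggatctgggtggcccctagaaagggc
Hoxa9: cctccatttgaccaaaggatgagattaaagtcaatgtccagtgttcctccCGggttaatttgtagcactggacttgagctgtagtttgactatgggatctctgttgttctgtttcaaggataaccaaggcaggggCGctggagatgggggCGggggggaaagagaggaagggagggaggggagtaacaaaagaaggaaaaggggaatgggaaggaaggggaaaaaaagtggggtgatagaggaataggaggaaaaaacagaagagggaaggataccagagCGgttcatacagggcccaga
Hoxb4: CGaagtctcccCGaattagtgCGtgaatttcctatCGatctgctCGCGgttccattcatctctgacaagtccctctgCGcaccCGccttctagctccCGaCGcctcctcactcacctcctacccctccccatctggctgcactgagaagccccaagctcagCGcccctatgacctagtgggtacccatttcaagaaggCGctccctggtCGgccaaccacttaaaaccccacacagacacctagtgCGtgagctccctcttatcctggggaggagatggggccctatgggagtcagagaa
Hoxc4: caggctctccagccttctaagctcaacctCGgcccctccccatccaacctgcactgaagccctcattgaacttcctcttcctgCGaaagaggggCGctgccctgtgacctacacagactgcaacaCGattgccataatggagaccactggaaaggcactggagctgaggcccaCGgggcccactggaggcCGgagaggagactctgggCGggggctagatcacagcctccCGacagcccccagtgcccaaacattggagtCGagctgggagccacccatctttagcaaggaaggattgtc
Hoxd9: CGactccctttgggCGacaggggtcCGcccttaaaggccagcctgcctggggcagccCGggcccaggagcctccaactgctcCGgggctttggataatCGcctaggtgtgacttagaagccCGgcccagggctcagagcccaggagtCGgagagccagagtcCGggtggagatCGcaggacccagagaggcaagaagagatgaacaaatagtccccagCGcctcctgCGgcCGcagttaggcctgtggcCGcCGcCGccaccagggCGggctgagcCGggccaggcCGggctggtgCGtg
These windows held 9 CG dinucleotides for Hoxa7, 4 for Hoxa9, 14 for Hoxb4, 9 for Hoxc4 and 20 for Hoxd9. Of the 31 Hox genes, 18 had a promoter in the RefSeq table. With 1 promoter per gene, their CG count ran from 4 to 45 with a median of 13.5, against a median of 7 over 27025 promoters of the same length, and 15 of the 18 lay above that median. Median GC content was 58.7% in the Hox promoters and 52.7% over all. The search on both strands covered 3 motif strings, which do not contain one another: TGATNNAT, as bound by Hox proteins with Pbx, was in 2 of the 18 Hox promoters (Hoxa2 and Hoxb1) and in 9.04% of all promoters; TTTATNG, as bound by Hox proteins of high paralog number, was in 0 of 18 and in 11.3% of all; TAATTA, a homeodomain core, was in 1 of 18 (Hoxd11) and in 5.31% of all. Hoxa10 and Hoxd11 each had a second window, which was not counted. That of Hoxd11 held 25 CG dinucleotides and both TGATNNAT and TAATTA. All of these are matches of letters only, and none of the 5 windows printed above holds any of the 3 strings.

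Values are deposited array signals as log2(signal + 16), so 4 is the level of a signal of 0, and array medians ran from 5.81 to 6.18. A level says where a gene's own probe set read on each array, and levels of different genes are not compared. Of 12 measured keratinocyte markers, 2 (Itga6 and Perp) were above the array median on all papilla arrays, against 12 on all hair germ arrays and 12 on all bulge arrays. Of 16 dermal papilla markers, 14 were above it on all papilla arrays, against 2 in the hair germ and 1 in the bulge. Summed keratinocyte marker signal was 543 to 1671 in the papilla, against 42947 to 64047 in the hair germ and 37246 to 41288 in the bulge. Melanocyte marker signal summed to 382 to 701 in the papilla, 2131 to 4970 in the hair germ and 2251 to 2975 in the bulge, and no skeletal muscle or endothelial marker was above the median on all arrays of any population. Of 7 leukocyte markers, 0 were above it on all arrays of the papilla, 2 of the hair germ (Laptm5 and Cd74) and 2 of the bulge (Ptprc and Laptm5). Of 9 dermal fibroblast markers, 7 were above it in the papilla, 2 in the hair germ and 2 in the bulge, with summed signals of 15343 to 20293 in the papilla, against 243 to 1021 in the hair germ and 259 to 1360 in the bulge. The part of other cell types in the Hox differences was not tested. The ratio of 3′ to 5′ GAPDH probe set signal, a sign of RNA length after amplification, was 2.97 to 8.34 and was above 6 on the papilla array of day 43 and the hair germ arrays of days 43 and 69. In sorted bulk samples, fewer cells of a type and less RNA per cell cannot be told apart.

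All 3 populations had Hox signal, from sets of genes that overlapped in part. Hoxa5, Hoxa9, Hoxc6 and Hoxc8 were in all 3 sets. In the dermal papilla, 9 of the 31 Hox genes read above the array's own median on all 3 arrays: Hoxa5, Hoxa9, Hoxb2, Hoxc4, Hoxc6, Hoxc8, Hoxc9, Hoxd8 and Hoxd9. In the hair germ there were 8: Hoxa5, Hoxa7, Hoxa9, Hoxb4, Hoxc4, Hoxc6, Hoxc8 and Hoxc13. In the bulge there were 14: Hoxa2, Hoxa5, Hoxa7, Hoxa9, Hoxb2, Hoxb3, Hoxb4, Hoxb5, Hoxb6, Hoxc6, Hoxc8, Hoxc13, Hoxd8 and Hoxd9. By cluster, the papilla had 2 of 9 genes of cluster A, 1 of 9 of cluster B, 4 of 6 of cluster C and 2 of 7 of cluster D. The hair germ had 3 of cluster A, 1 of cluster B, 4 of cluster C and 0 of cluster D. Hoxa2, Hoxb2 and Hoxd8 missed this set by 1 array, being above the median on 2 of the 3 hair germ arrays. On days 43, 56 and 69 the median itself was 5.89, 6.13 and 6.18 in the hair germ, against 5.87, 5.81 and 5.89 in the bulge. Membership thus depends in part on the array: Hoxa2 averaged 6.22 in the hair germ and 6.26 in the bulge, but was only in the bulge set. The bulge had 4 of cluster A, 5 of cluster B, 3 of cluster C and 2 of cluster D. A further 14 Hox genes were above the median on no array: Hoxa4, Hoxa10, Hoxa11, Hoxa13, Hoxb1, Hoxb7, Hoxb9, Hoxb13, Hoxc5, Hoxd1, Hoxd10, Hoxd11, Hoxd12 and Hoxd13. For these a low signal may come from the probe set as well as from the RNA, which was not tested.

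**Figure D1:**
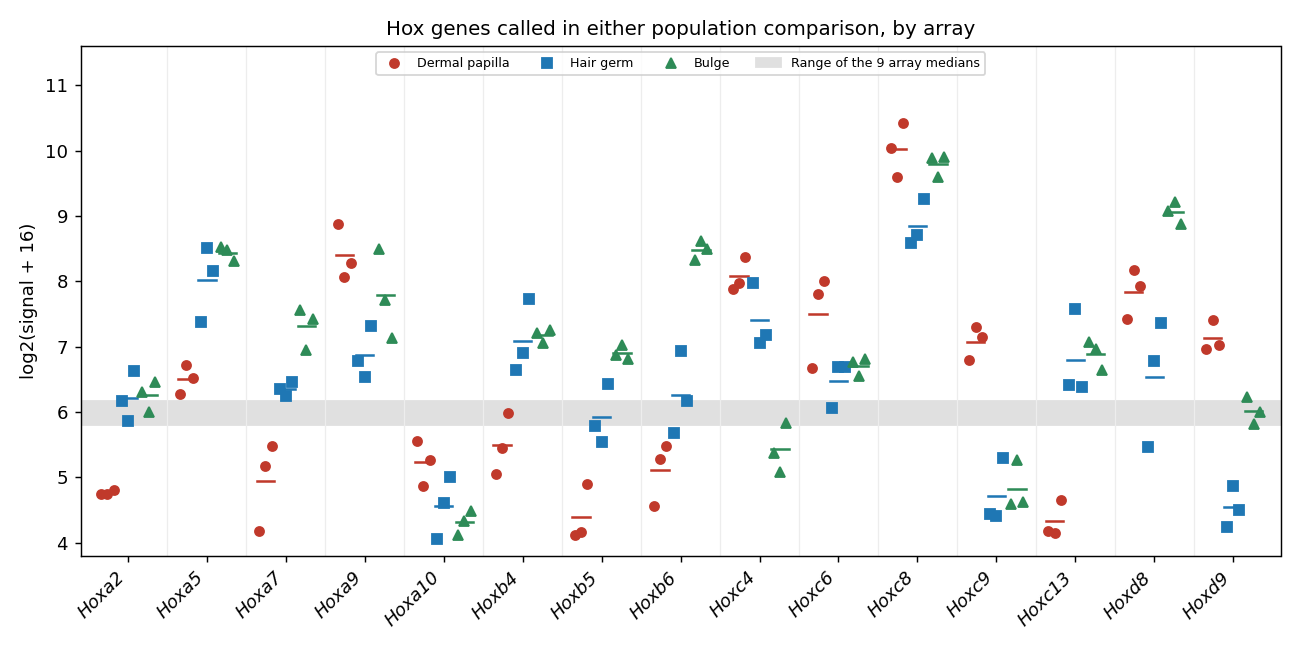
Levels of the 15 Hox genes called in either population comparison, as log2(signal + 16), for dermal papilla (circles), hair germ (squares) and bulge (triangles), with 1 point per array in the order of days 43, 56 and 69, a line at each population's mean and a grey band for the range of the 9 array medians (5.81 to 6.18). Hoxc9 and Hoxd9 read highest in the papilla, Hoxc13 and Hoxb6 read lowest there, and Hoxc4 is low in the bulge alone.

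Dermal papilla and epithelium differed in both directions. The fit was limma over all 12393 genes with population and day as terms, the 3 days serving as replicates of a population, and epithelium taken as the mean of hair germ and bulge; a gene was called at a Benjamini-Hochberg adjusted p below 0.05. Of the 31 Hox genes, 14 were called (45.2%), against 26.1% of all genes. In the papilla 7 were higher (Hoxa9, Hoxa10, Hoxc4, Hoxc6, Hoxc8, Hoxc9 and Hoxd9), where 11.2% of all genes were higher, and 7 were lower (Hoxa2, Hoxa5, Hoxa7, Hoxb4, Hoxb5, Hoxb6 and Hoxc13), where 14.9% of all genes were lower. All 14 kept 1 sign on each of the 3 days, which a call on these same arrays favours. The papilla arrays did not overlap the 6 epithelial arrays in 9 of the 31 Hox genes, all of them called, against 23.0% of all genes. All 7 lower genes differed at least 2-fold, as did 4 of the 7 higher ones. The median log2 difference over the 31 Hox genes was 0.02, against -0.07 over all genes. P-values here measure the spread between these arrays, which may be in part technical.

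Among the genes higher in the papilla, Hoxc9, a gene of thoracic identity in the embryo, had the largest difference. Its level was 6.79, 7.30 and 7.14 in the papilla on days 43, 56 and 69, against 4.44, 4.41 and 5.30 in the hair germ and 4.60, 5.26 and 4.62 in the bulge. The papilla arrays were all above every epithelial array, and none of the 6 epithelial values reached its array median. The log2 difference was 2.31 ± 0.28 (SE; 4.95-fold; limma adjusted p 0.000119).

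Hoxd9, its paralog in cluster D, read 6.96, 7.40 and 7.02 in the papilla, against 4.24, 4.88 and 4.50 in the hair germ and 6.23, 5.82 and 6.0 in the bulge. The 3 populations did not overlap, with the bulge between the papilla and the hair germ. The papilla minus epithelium difference was 1.85 ± 0.26 (SE; 3.60-fold; limma adjusted p 0.000319). Against the hair germ alone it was 2.59 and against the bulge alone 1.11, with limma adjusted p of 9.51e-05 and 0.0205.

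Hoxc4, at the low-number end of cluster C, read 7.89, 7.97 and 8.36 in the papilla, against 7.97, 7.05 and 7.18 in the hair germ and 5.38, 5.09 and 5.84 in the bulge. The hair germ array of day 43 lay within the papilla's range, while all bulge arrays were lower than all others. The difference from the epithelial mean was 1.66 ± 0.26 (SE; 3.15-fold; limma adjusted p 0.000666). It came from the bulge side: the papilla minus bulge difference was 2.64, and the papilla minus hair germ difference was 0.67 with a limma adjusted p of 0.127.

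The other 4 higher genes differed less, and their papilla arrays overlapped the epithelial ones. Hoxa9, best known as a regulator of blood progenitors, read 8.88, 8.06 and 8.27 in the papilla, against 6.78, 6.53 and 7.31 in the hair germ and 8.50, 7.72 and 7.14 in the bulge (log2 difference 1.07 ± 0.27, limma adjusted p 0.0145). Against the bulge alone its difference was 0.62 (limma adjusted p 0.22), and that of Hoxc6 was 0.78 (limma adjusted p 0.0938). Hoxc6, at 6.67, 7.81 and 8.0 in the papilla, 6.06, 6.69 and 6.68 in the hair germ and 6.76, 6.55 and 6.81 in the bulge, differed by 0.90 ± 0.26 (limma adjusted p 0.0259), and its papilla array of day 43 lay among the bulge values. Hoxc8, a gene of thoracic identity, read 10.04, 9.59 and 10.42 in the papilla, 8.58, 8.71 and 9.26 in the hair germ and 9.89, 9.60 and 9.91 in the bulge (0.70 ± 0.17, limma adjusted p 0.0122). Papilla and bulge thus overlapped for Hoxc8, with a difference of 0.22 and a limma adjusted p of 0.521, and the hair germ was the low population. Hoxa10, known for its role in the uterus, was below the array median everywhere, at 5.56, 4.87 and 5.27 in the papilla, 4.05, 4.61 and 5.0 in the hair germ and 4.11, 4.34 and 4.48 in the bulge (0.80 ± 0.23, limma adjusted p 0.0254).

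The calls of these 4 genes depended on single arrays. Without 1 array at a time, the limma adjusted p of Hoxa10 was 0.17 without the papilla array of day 43, 0.068 and 0.0577 without the bulge arrays of days 43 and 69, and 0.0502 without the hair germ array of day 43. That of Hoxa9 was 0.076, 0.0533 and 0.0581 without the papilla arrays of days 43, 56 and 69. Hoxc6 gave 0.168 and 0.165 without the papilla arrays of days 56 and 69, and 0.0732 and 0.067 without the bulge arrays of the same days, whereas Hoxc8 gave 0.0639 and 0.0738 without the papilla arrays of days 43 and 69. With the 3 arrays of high GAPDH ratio and the day term both left out, the array of day 56 alone stood for the hair germ. In that fit Hoxa9 and Hoxa10 differed by 1.01 and 0.61, and Hoxa9, Hoxa10 and Hoxc8 were not called. The other 10 called genes stayed called in each fit without 1 array.

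Among the genes lower in the papilla was Hoxc13. It is the Hox gene tied to hair shaft keratins, and mice without it lack normal hair. Its level was 4.18, 4.15 and 4.66 in the papilla, against 6.41, 7.58 and 6.38 in the hair germ and 7.07, 6.96 and 6.64 in the bulge. The papilla values were near the floor, all 6 epithelial arrays were above their medians, and the hair germ and bulge ranges overlapped. The difference was -2.51 ± 0.31 (SE; 5.70-fold; limma adjusted p 0.000144).

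Cluster B gave 3 genes of successive number that were lower in the papilla. Hoxb6 read 4.56, 5.29 and 5.48 in the papilla, 5.68, 6.94 and 6.17 in the hair germ and 8.33, 8.61 and 8.49 in the bulge, a separate range for each population (-2.26 ± 0.25, 4.79-fold, limma adjusted p 6.57e-05). Against the bulge alone the difference was -3.37 (10.3-fold) and against the hair germ alone -1.15. Hoxb5 read 4.12, 4.17 and 4.90 in the papilla, 5.79, 5.55 and 6.42 in the hair germ and 6.88, 7.03 and 6.80 in the bulge (-2.02 ± 0.26, 4.04-fold, limma adjusted p 0.000212). Hoxb4, which has been used to expand blood stem cells, read 5.05, 5.45 and 5.99 in the papilla, 6.64, 6.91 and 7.72 in the hair germ and 7.21, 7.06 and 7.26 in the bulge (-1.63 ± 0.24, 3.11-fold, limma adjusted p 0.000526). All papilla arrays of the 3 genes were below all epithelial arrays.

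Cluster A supplied the remaining 3. Hoxa7 read 4.18, 5.17 and 5.48 in the papilla, 6.35, 6.24 and 6.46 in the hair germ and 7.56, 6.96 and 7.42 in the bulge (-1.89 ± 0.30, 3.71-fold, limma adjusted p 0.000808). Hoxa5, needed for lung and neck development, read 6.28, 6.72 and 6.52 in the papilla, 7.38, 8.51 and 8.16 in the hair germ and 8.52, 8.47 and 8.31 in the bulge (-1.72 ± 0.22, 3.29-fold, limma adjusted p 0.000168). Here the papilla was lower but still above its array medians. Hoxa2, which sets the identity of the second pharyngeal arch, read 4.74, 4.75 and 4.80 in the papilla, 6.17, 5.86 and 6.63 in the hair germ and 6.31, 6.0 and 6.46 in the bulge (-1.48 ± 0.24, 2.78-fold, limma adjusted p 0.000877). The papilla arrays lay below the epithelial arrays for all 3 genes.

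Where 1 population read near the floor, the size of a difference depended on the pseudocount, though no Hox call between papilla and epithelium did. With pseudocounts of 1 and 64 the papilla minus epithelium difference was -4.46 and -1.26 for Hoxc13, -3.86 and -0.96 for Hoxb5, -2.97 and -1.44 for Hoxb6, -2.97 and -1.03 for Hoxa7, -2.31 and -0.72 for Hoxa2, -2.09 and -1.01 for Hoxb4, 3.41 and 1.27 for Hoxc9, 2.68 and 1.07 for Hoxd9, and 2.06 and 0.30 for Hoxa10. The folds given for these genes hold for a pseudocount of 16 only, and so does their order by size: with 64, Hoxb6 and Hoxa5 (-1.33) were further from 0 than Hoxc13.

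The balance of directions differed between the clusters, which had 6 to 9 genes each. Of all genes, 11.2% were higher in the papilla and 14.9% lower. Higher in the papilla were 2 genes of cluster A, 0 of cluster B, 4 of cluster C and 1 of cluster D, and lower were 3 of cluster A, 3 of cluster B, 1 of cluster C and 0 of cluster D. The median difference was -0.18 in cluster A, -0.30 in cluster B, 0.80 in cluster C and 0.04 in cluster D. Along cluster A the called genes of low number (Hoxa2, Hoxa5 and Hoxa7) were lower and those of higher number (Hoxa9 and Hoxa10) were higher, and Hoxa7 and Hoxa9 are direct neighbours in the gene table's order. Cluster C ran the other way at its end: Hoxc4, Hoxc6, Hoxc8 and Hoxc9 were higher and Hoxc13 was lower. The calls of Hoxa9, Hoxa10, Hoxc6 and Hoxc8 depended on single arrays, as given above. Those of Hoxa9 and Hoxc6 also differed between probe sets, as given below. Against the bulge alone Hoxa9, Hoxc6 and Hoxc8 were not called, and against the hair germ alone Hoxa10 and Hoxc4 were not.

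Taken by paralog number, groups 1 to 3 had 0 higher and 1 lower of 6 genes, groups 4 to 8 had 3 higher and 5 lower of 12, and groups 9 to 13 had 4 higher and 1 lower of 13. Across the 31 genes, paralog number and the papilla minus epithelium difference had a Pearson r of 0.15 and a Spearman rho of 0.22; without Hoxc13 (30 genes) these were 0.29 and 0.33. Over the 14 called genes they were 0.21 and 0.14, and without Hoxc13 (13 genes) 0.58 and 0.43. The called genes were chosen by this same difference, so their values cannot be read apart from that choice. Over the 16 Hox genes above their array median on at least 3 arrays, r was 0.14 and rho 0.20. The values rest on whether Hoxc13 is counted, and genes sharing a cluster and the same 9 arrays are not independent. Paralogs could differ in direction: in group 4, Hoxb4 was lower and Hoxc4 higher, whereas in group 9 the 3 called genes (Hoxa9, Hoxc9 and Hoxd9) were all higher.

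**Figure D2:**
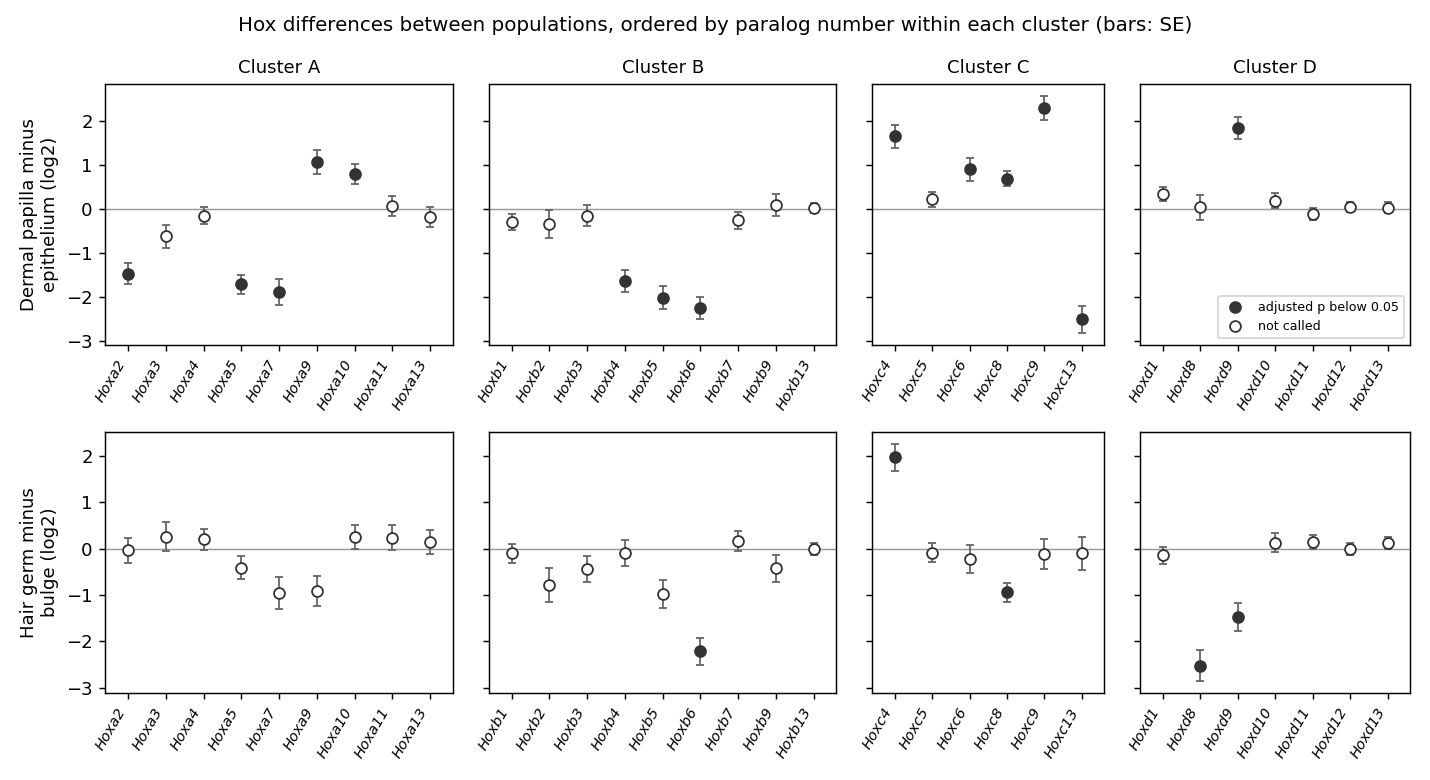
Log2 differences with their standard errors for all 31 Hox genes, in order of paralog number within clusters A to D, for dermal papilla minus epithelium (top) and hair germ minus bulge (bottom), with filled points for an adjusted p below 0.05 and open points for the rest. In the top row the filled points of cluster B are all below 0 and those of cluster C are above 0 except Hoxc13; in the bottom row 5 points are filled, and Hoxc4 alone of these is above 0.

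Within the epithelium, hair germ and bulge differed in fewer Hox genes. All genes did likewise, with 11.4% called here against 26.1% in the papilla comparison. Of the 31, 5 were called (16.1%), against 11.4% of all genes. In the hair germ 1 gene was higher, where 7.38% of all genes were higher, and 4 were lower, where 4.04% of all genes were lower. The median difference was -0.10 over the Hox genes and 0.13 over all genes. The hair germ arrays had higher medians than the bulge arrays on all 3 days. Of all genes, 915 were higher and 501 lower in the hair germ; with quantile normalization these were 656 and 693 and the median difference was -0.008, and with each array centred on its median they were 613 and 843 and the median was -0.08. Of the Hox genes, 1 was higher and 5 lower with quantile normalization, and 1 was higher and 7 lower with centring. In all 5 called genes the sign was the same on each day, which a call on the same arrays favours. Hair germ and bulge arrays did not overlap in 10 of the 31 Hox genes, against 31.4% of all genes, a share near the background: these were the 5 called genes and Hoxa7, Hoxb2, Hoxb3, Hoxb5 and Hoxd13, which were not called.

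Hoxd8 had the largest difference, at 5.46, 6.78 and 7.36 in the hair germ and 9.08, 9.22 and 8.88 in the bulge (-2.53 ± 0.33, 5.77-fold, limma adjusted p 0.000995). The papilla stood between them at 7.42, 8.17 and 7.93, so that its difference from the epithelial mean was 0.04 (limma adjusted p 0.941), made up of 1.30 above the hair germ and -1.22 against the bulge, with limma adjusted p of 0.0147 and 0.0223. Hoxb6, with the values given above, was lower in the hair germ (-2.21 ± 0.29, 4.64-fold, limma adjusted p 0.000991). Hoxd9 was likewise lower (-1.48 ± 0.30, limma adjusted p 0.00982), as was Hoxc8 (-0.95 ± 0.20, limma adjusted p 0.0127). The higher gene was Hoxc4 (1.97 ± 0.29, 3.91-fold, limma adjusted p 0.00208).

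Hoxb6, Hoxc4, Hoxc8 and Hoxd9 were called in both population comparisons, which share the epithelial arrays. Both called cluster D genes, Hoxd8 and Hoxd9, were lower in the hair germ. With pseudocounts of 1 and 64 the hair germ minus bulge difference was -2.71 and -0.66 for Hoxd9 and 2.47 and 1.25 for Hoxc4. For Hoxd9 the call ended without the bulge array of day 43 or day 69 (limma adjusted p 0.0789 and 0.0548), and for Hoxc8 without the bulge array of day 43 or 56 or the hair germ array of day 43 (0.1, 0.066 and 0.0577). Without the 3 arrays of high GAPDH ratio and without the day term, the array of day 56 alone stood for the hair germ. That fit has no hair germ replicate, and Hoxc8 and Hoxd9 were not called in it. No bulge array had a high ratio, and the part of RNA length in this comparison was not tested.

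Setting the papilla against each epithelial population alone, a comparison chosen after seeing the data, gave 13 called Hox genes against the hair germ (6 higher and 7 lower; 25.6% of all genes called) and 12 against the bulge (4 higher and 8 lower; 22.1% of all genes called). Hoxa2, Hoxa5, Hoxa7, Hoxb4, Hoxb5, Hoxb6 and Hoxc13 were lower, and Hoxc9 and Hoxd9 higher, in both.

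In neither population comparison were 16 Hox genes called. Their levels ran from 4.04 to 7.50, their papilla minus epithelium differences from -0.62 (Hoxa3) to 0.35 (Hoxd1), and their hair germ minus bulge differences from -0.78 (Hoxb2) to 0.26 (Hoxa3). They were Hoxa3, Hoxa4, Hoxa11, Hoxa13, Hoxb1, Hoxb2, Hoxb3, Hoxb7, Hoxb9, Hoxb13, Hoxc5, Hoxd1, Hoxd10, Hoxd11, Hoxd12 and Hoxd13. Of these, Hoxb2 was above the median on all papilla and all bulge arrays, at 5.98, 6.97 and 6.53 in the papilla, 6.75, 6.81 and 5.77 in the hair germ and 7.28, 6.89 and 7.50 in the bulge. Its papilla arrays overlapped both epithelial populations, and its hair germ arrays all lay below its bulge arrays without a call (limma adjusted p 0.215). Hoxb13, Hoxd12 and Hoxd13, genes of the tail end of their clusters, stayed between 4.06 and 4.28 on all 9 arrays.

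For 5 Hox genes more than 1 probe set was available (Hoxa3, Hoxa4, Hoxa9, Hoxb4 and Hoxc6). In a limma fit over all probe sets, the second Hoxa9 probe set gave a papilla minus epithelium difference of -0.004 (adjusted p 0.994), against 1.07 (adjusted p 0.0161) for the brightest. With the mean of a gene's probe sets, the Hoxa9 difference was 0.54 and was not called (limma adjusted p 0.078). For Hoxc6, 2 probe sets gave 0.90 and 0.99 (limma adjusted p 0.0274 and 0.0138) and the third -0.07 (limma adjusted p 0.926). Both Hoxb4 probe sets were lower in the papilla, at -1.63 and -0.96 (limma adjusted p 0.00057 and 0.0314). The brightest probe set of Hoxc6 carries the manufacturer's mark for probes that may match other sequences.

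Between days no Hox gene was called. From day 43 to day 69 the limma fit called 0 of 31 Hox genes and 0.0% of all genes, with 3 Hox genes (Hoxb4, Hoxc5 and Hoxc6) and 847 of all genes at an unadjusted p below 0.05. From day 43 to day 56 it again called 0 Hox genes and 0.0% of all genes, with 1 Hox gene (Hoxb6) and 569 of all genes at an unadjusted p below 0.05. These tests pool the 3 populations.

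Within a population there was 1 array per day and no test, and a Hox gene was named where day 56 or 69 was at least 2-fold from day 43 and the higher array was above its median. In the papilla Hoxc6 alone met this, at 6.67, 7.81 and 8.0 on days 43, 56 and 69 (differences of 1.13 by day 56 and 1.33 by day 69); of all genes, 5.08% and 6.06% met the same rule. The hair germ had 4 such genes at day 56, namely Hoxa5 (7.38 and then 8.51), Hoxb6 (5.68 and then 6.94), Hoxc13 (6.41 and then 7.58) and Hoxd8 (5.46 and then 6.78), where 5.89% of all genes were 2-fold apart. At day 69 it had 2, Hoxb4 (7.72, against 6.64 on day 43) and Hoxd8 (7.36, a difference of 1.89), where 9.15% of all genes were. Its GAPDH ratio was 8.34, 2.97 and 7.90 on the 3 days, against 6.62, 4.13 and 3.77 in the papilla. The part of RNA length in the differences of either population was not tested. In the bulge Hoxa9 alone met the rule, at 8.50, 7.72 and 7.14 on the 3 days (a difference of -1.36 by day 69), where 0.395% of all genes were 2-fold apart by day 56 and 1.76% by day 69.

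**Figure D3:**
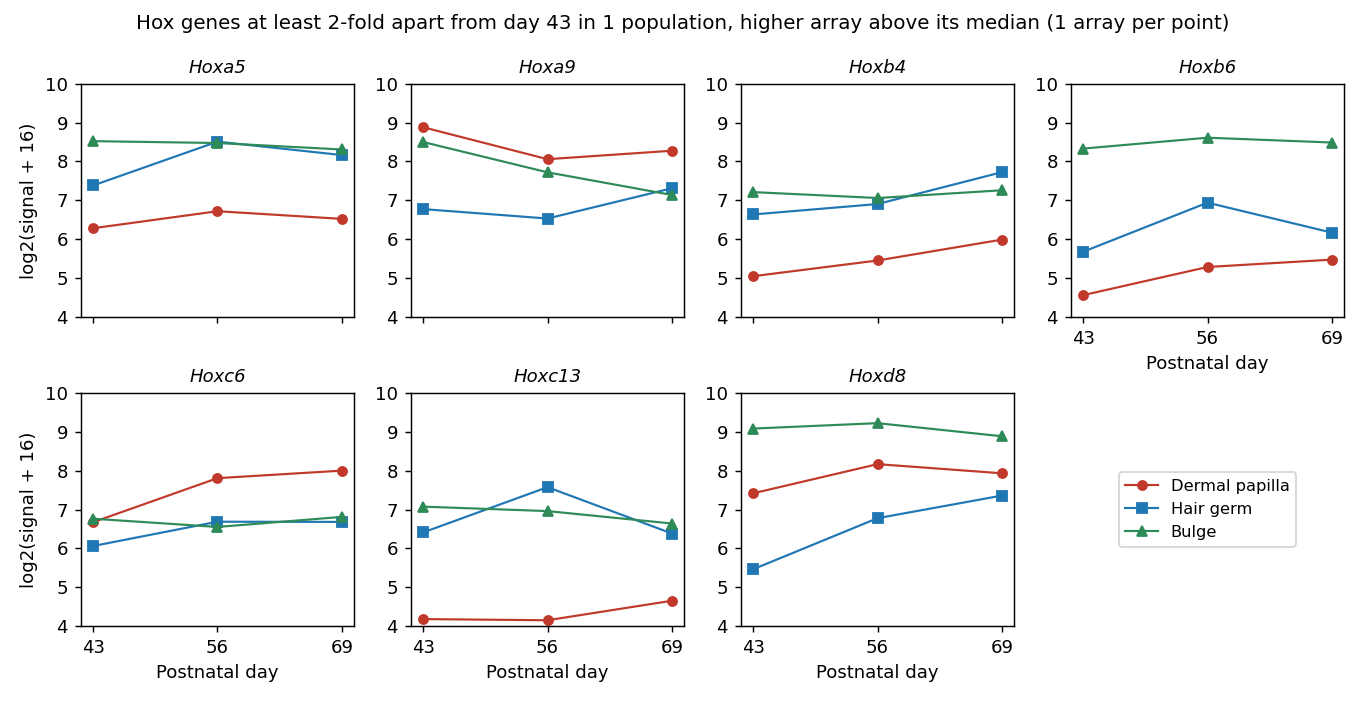
Levels as log2(signal + 16) on postnatal days 43, 56 and 69 for the 7 Hox genes at least 2-fold apart from day 43 in 1 population with the higher array above its median, with dermal papilla as circles, hair germ as squares and bulge as triangles, and 1 array per point with no replicate. The hair germ line of Hoxd8 climbs over the 3 days, at 5.46, 6.78 and 7.36, while its bulge line stays between 8.88 and 9.22.

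Genes that work with Hox proteins were described as lists, by their counts. Of 8 measured TALE cofactors, homeodomain proteins that bind DNA beside Hox proteins, 3 were higher in the papilla and 0 lower, with a median difference of 0.26; of all genes 11.2% were higher and 14.9% lower, with a median of -0.07. Meis2 averaged 8.30 ± 0.12 in the papilla, against 6.46 ± 0.52 in the hair germ and 4.97 ± 0.04 in the bulge (SD, n = 3 each; papilla minus epithelium 2.58, limma adjusted p 1.98e-05). Meis3 and Meis1 were higher by 1.73 and 1.45. Meis2 was also the 1 cofactor called between hair germ and bulge, higher in the hair germ by 1.49 (limma adjusted p 0.00722). Of all genes, 11.4% were called between these populations.

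Polycomb group proteins hold Hox clusters silent through histone marks. Of 22 measured, 2 were higher in the papilla and 3 lower, shares close to those of all genes (11.2% and 14.9%), with a median difference of -0.18. The subunit gene Phc1 averaged 7.63 ± 0.20 in the papilla, against 4.67 ± 0.33 in the hair germ and 4.82 ± 0.13 in the bulge (SD, n = 3 each; difference 2.88, limma adjusted p 1.14e-05), and Cbx6 was higher by 1.62. Cbx2, another such subunit, was lower in the papilla (-1.18), as was the methyltransferase gene Ezh2 (-0.84). Between hair germ and bulge, Ezh2 (0.92) and Mtf2 (0.80) were higher in the hair germ and Cbx8 was lower (-1.03), of 22. Of all genes, 7.38% were higher there and 4.04% lower. Trithorax proteins and H3K27 demethylases act against Polycomb silencing. Of 9 measured, Psip1 (1.10) and the demethylase gene Kdm6a (0.85) were higher in the papilla and 0 were lower. Of all genes, 11.2% were higher and 14.9% lower. None of the 9 was called between hair germ and bulge, where 11.4% of all genes were.

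Genes that flank the Hox clusters gave 0 higher and 3 lower of 14 in the papilla, where 11.2% of all genes were higher and 14.9% lower, and 0 called between hair germ and bulge, where 11.4% of all genes were called. Skap2, an adaptor protein gene beside cluster A, averaged 5.67 ± 0.40 in the papilla, against 9.64 ± 0.36 in the hair germ and 9.62 ± 0.12 in the bulge (SD, n = 3 each; difference -3.96, limma adjusted p 6.32e-07). Tax1bp1 (-1.71) and Snx10 (-0.93), also near cluster A, were the other two. Of the 6 ParaHox and Cdx genes, 0 were called in the papilla comparison and Gsx2 was higher in the hair germ than in the bulge (0.75), with both below their array medians.

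A list of patterning factors of other homeobox, T-box and Twist families was drawn up as factors of dermis, a choice that favours genes higher in mesenchyme. Of 22 measured, 10 were higher in the papilla and 2 lower (Dlx5, -2.12, and Dlx2, -0.73), with a median of 0.18. Of all genes, 11.2% were higher and 14.9% lower. Prrx1, a marker of limb and dermal mesenchyme, had a difference of 6.37, Twist1 6.28, Prrx2 4.44 and Tbx15 4.29. Between hair germ and bulge, Dlx5 (-1.08) and Dlx2 (-0.89) were lower in the hair germ and 0 were higher. Of all genes, 4.04% were lower there and 7.38% higher. Of 12 measured hair genes tied to Hoxc13, Krt31 (-1.18) and Foxq1 (-1.12) were lower in the papilla and 0 were higher. That lower count is near the share of all genes, 14.9%. Krt31 averaged 5.62 in the hair germ and 5.77 in the bulge, below all array medians. Between hair germ and bulge 0 of the 12 were called, where 11.4% of all genes were.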

How the data were processed

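RNA of 9 sorted samples was measured on 9 Affymetrix arrays, 1 per population (dermal papilla, hair germ, bulge) and day (43, 56, 69), after 2 rounds of amplification per the labels' protocols. The authors deposited 1 intensity value per probe set, linear and not logged; the submitters' processing notes name GCOS and MAS5. Their scaling is not given in the sources used here.

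Of 22690 probe sets, 64 were controls, 20380 had 1 gene symbol, 691 had several and 1555 had none; 20351 of the single-gene ones matched the current gene table. Each of 12393 genes was represented by its brightest probe set, as log2(signal + 16), with no filter on low values, since a filter passed through 1 population favours genes that differ. limma 3.58.1 in R 4.3.3 fitted population and day with a mean-variance trend, Benjamini-Hochberg adjustment and a threshold of 0.05. The number of arrays limits the precision. On simulated data with 12393 genes, 100 genes were changed by 1 on the log2 scale and 100 by 2. The papilla comparison recovered 61% and 100% of these, and the hair germ comparison 50% and 99%. Among unchanged genes, 18 and 5 were called. The simulated share of changed genes was far smaller than the shares called in the data, so these rates need not hold for the data.

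Hox genes called in any of 4 contrasts (papilla minus epithelium, hair germ minus bulge, day 69 or day 56 minus day 43) are named with all their values, the others by ranges and names, and up to 4 called genes per other list by size of difference. The Hox genes, the lists and the markers were chosen with earlier results of these data known. Alternatives were pseudocounts of 1 and 64, quantile normalization, median centring, a filter on low values, the mean of a gene's probe sets, no day term, no trend, leaving out the 3 arrays with a GAPDH ratio above 6 together with the day term, and leaving out each array.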

Additional observations from a re-analysis of the deposited data

How the results depend on the processing

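Of 19 called Hox differences, 13 kept their call under all of the 18 alternatives that gave a value, 6 lost it under at least 1 (Hoxa9, Hoxa10, Hoxc6 and Hoxc8 in the papilla comparison, Hoxc8 and Hoxd9 between hair germ and bulge), and 0 changed sign. Hoxa10 had no value under the filter on low values. Calls were also gained between hair germ and bulge. Hoxb5 (limma adjusted p 0.065 with the settings used here) was called with a pseudocount of 64, quantile normalization, median centring or the filter. It was also called with the mean of probe sets or no trend. Hoxa7 was called with median centring or without the papilla array of day 43. Hoxa9 was called with median centring or without the bulge or hair germ array of day 69. In the papilla comparison 11 to 14 Hox genes and 2412 to 3334 of all genes were called with 1 array left out, against 14 and 3240 with all arrays. Between hair germ and bulge these were 3 to 6 and 655 to 1471, against 5 and 1416; 3 Hox genes were called without the bulge array of day 43, and 655, 756 and 767 of all genes without the bulge array of day 43, 56 and 69. Median centring called 8 Hox genes there, and leaving out both the 3 arrays of high GAPDH ratio and the day term called 3 Hox genes and 805 of all genes. Leaving out the day term, which is the replicate block of this design, gave 14 and 5 Hox genes and 3223 and 1393 of all genes; a day number marks a shared time, and whether it marks shared mice is not given. No alternative called a gene between days. The differences that changed sign were not called with all arrays. With 1 array left out, hair germ minus bulge ran from -0.18 to 0.074 for Hoxa2, -0.33 to 0.15 for Hoxb4, -0.52 to 0.12 for Hoxc13, -0.44 to 0.10 for Hoxc6 and -0.44 to 0.20 for Hoxc9, and Hoxd8 in the papilla comparison from -0.18 to 0.26. Without those 3 arrays and the day term, hair germ minus bulge was 0.075 for Hoxa5 and 0.68 for Hoxc13. Hoxd8 in the papilla comparison was -0.068 with a pseudocount of 64 and -1.22 against the bulge alone. The cause of these changes was not tested. Signals near the floor limit what the low Hox probe sets can show.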
